A study of Mus musculus with 12 samples.

Results

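Mitochondrial ribosomal proteins are the nuclear-encoded protein subunits of the ribosome that works inside mitochondria. They were taken as every gene whose symbol begins with Mrpl (large subunit) or Mrps (small subunit) followed by a number, which gave 81 of the 13190 genes of the deposited table, 50 large and 31 small. Their RNA was measured on ribosomes of parvalbumin interneurons, fast-spiking GABAergic cells of the mouse cortex. All mice were C57BL/6 and carried PV-Cre k/+ and RiboTag k/k, so that Cre made from the parvalbumin locus switched on a tagged ribosomal protein by which ribosomes and their RNA were pulled down. The design crossed genotype, wild type or Nptx2 KO (loss of a secreted neuronal pentraxin), with housing: after weaning the mice lived in groups or singly for at least 4 weeks, and the labels give single housing as social stress. The 4 groups of 3 libraries were therefore group-housed wild type, single-housed wild type, group-housed Nptx2 KO and single-housed Nptx2 KO, and the labels state 3 biological replicates each. The labels give neither the age nor the sex of the mice.

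Mitochondria keep their own genome, which encodes a few subunits of the respiratory chain, and translate it with a ribosome of their own. The ribosomal RNAs of that ribosome come from the mitochondrial genome, whereas its proteins are encoded in the nucleus, translated in the cytosol and imported. The RNA on cytosolic ribosomes, which is what the pulldown collects, is therefore a step in making the mitochondrial machine, and fast-spiking interneurons are known for a high energy demand and many mitochondria.

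A few facts of the whole table bear on the values below. Levels are log2(FPKM + 1), where FPKM is fragments scaled to transcript length and library size, so that levels may be compared between genes. Sequencing depth is unknown because no counts were used here. Nptx2 itself spanned 2.37 to 2.74 in the libraries labelled KO, no lower than the 2.23 to 2.62 of wild type, so a value for the whole gene could not check the genotype and the libraries are called labelled KO throughout. Of the markers listed for the intended cells, Pvalb at 9.65 to 10.28, Gad1 at 10.51 to 10.68 and Slc32a1 at 8.16 to 8.37 were high. Others of that list were lower, with Kcns3 down to 1.65 in its lowest library and Erbb4 at 1.12 to 2.09. RNA of other cells was present, with Slc17a7 of excitatory neurons at 5.48 to 5.79 and the microglial gene Cx3cr1 at 1.03 to 1.49. Among markers of other interneurons, Npy stood at 6.8 to 8.7, Cck at 7.35 to 7.80, Sst at 5.72 to 6.52, Lamp5 at 4.03 to 4.83 and Vip at no more than 1.85. RNA of the Y-linked gene Ddx3y stood above 1 in 5 libraries, all 3 of single-housed wild type and CTTGTA and AGTCAA of single-housed labelled KO, and was listed at 0 in the other 7. Housing in wild type and this Y-linked signal therefore cannot be told apart. Genes of the amino acid response were high together in 5 libraries that cut across the groups: CCGTCC and GTCCGC of group-housed wild type, CGATGT of group-housed labelled KO, and CTTGTA and AGTCAA of single-housed labelled KO. In such pulldowns, fewer cells of a type and less RNA per cell cannot be told apart.

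The promoters of these genes were looked up because nuclear respiratory factors are known to control many genes of mitochondrial translation. RefSeq windows of 300 bases across the transcription start (GRCm38.p6) were matched for 68 of the 81 genes, in 74 windows. They were searched on both strands for GCGCATGC (NRF1), CCGGAAG (GABPA, also called NRF2) and AAGATGG (YY1). The GABPA letters were in the windows of 25 genes, or 36.76%, against 20.24% of the 9040 genes of the deposited table that had a window and 9.93% of all 27025 genes with one. The YY1 letters were in 13 genes (19.12%, against 8.62% and 7.28%) and the NRF1 letters in 8 (11.76%, against 6.16% and 3.05%). At least 1 of the 3 motifs was in 37 genes, 54.41%, against 31.22% of the genes of the table and 18.56% of all. A match is a stretch of letters and not a measured binding site.

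The 5 windows shown belong to the genes with the smallest p-values or large differences in level (Mrpl3, Mrpl48 and Mrpl17) and to the pair of member genes that share a promoter region (Mrpl46 and Mrps11). All are 5′ to 3′ on the gene's strand, and capitals mark a motif or its reverse complement. Mrpl3 (chr9:105053018-105053317, plus strand) holds the GABPA letters with their first base at -19 from the start. Mrpl48 (chr7:100608252-100608551, minus strand) holds none of the 3 at this start, the outermost of 4 that RefSeq gives; the window at another start (chr7:100583081-100583380), not shown, holds the GABPA letters in reverse at -34, by which the gene counts among the 25. Mrpl17 (chr7:105811038-105811337, minus strand) holds the NRF1 letters at -11 and the GABPA letters at -237. Mrpl46 (chr7:78783040-78783339, minus strand) holds none, and Mrps11 (chr7:78782881-78783180, plus strand), read in the other direction from an overlapping stretch, holds the YY1 letters in reverse at -106.
Mrpl3: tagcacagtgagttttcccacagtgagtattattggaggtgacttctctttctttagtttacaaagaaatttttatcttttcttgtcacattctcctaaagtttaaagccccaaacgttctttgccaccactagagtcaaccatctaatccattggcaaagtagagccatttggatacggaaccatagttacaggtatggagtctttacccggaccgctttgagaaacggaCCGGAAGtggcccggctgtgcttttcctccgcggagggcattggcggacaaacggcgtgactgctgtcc
Mrpl48: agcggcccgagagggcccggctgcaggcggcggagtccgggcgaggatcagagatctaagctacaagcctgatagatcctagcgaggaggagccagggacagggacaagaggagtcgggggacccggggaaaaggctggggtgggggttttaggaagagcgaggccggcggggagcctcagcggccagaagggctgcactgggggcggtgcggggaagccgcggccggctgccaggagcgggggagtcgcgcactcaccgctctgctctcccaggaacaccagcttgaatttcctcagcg
Mrpl17: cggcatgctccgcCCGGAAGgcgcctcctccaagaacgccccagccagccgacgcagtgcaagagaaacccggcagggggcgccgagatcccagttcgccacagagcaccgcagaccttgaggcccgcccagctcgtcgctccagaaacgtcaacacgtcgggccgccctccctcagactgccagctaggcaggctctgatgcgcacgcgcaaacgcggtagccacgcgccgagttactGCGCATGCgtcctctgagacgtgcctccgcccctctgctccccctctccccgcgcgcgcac
Mrpl46: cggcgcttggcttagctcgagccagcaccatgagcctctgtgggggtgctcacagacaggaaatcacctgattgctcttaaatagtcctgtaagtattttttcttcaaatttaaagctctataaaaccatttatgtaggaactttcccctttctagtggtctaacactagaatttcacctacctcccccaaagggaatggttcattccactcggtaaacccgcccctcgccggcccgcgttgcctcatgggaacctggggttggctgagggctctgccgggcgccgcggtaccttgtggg
Mrps11: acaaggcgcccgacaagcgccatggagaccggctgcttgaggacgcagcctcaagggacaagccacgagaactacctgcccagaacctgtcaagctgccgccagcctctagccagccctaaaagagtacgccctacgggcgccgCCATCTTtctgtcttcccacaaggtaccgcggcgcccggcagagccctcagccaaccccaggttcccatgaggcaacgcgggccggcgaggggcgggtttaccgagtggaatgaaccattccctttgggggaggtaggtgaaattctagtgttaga

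RNA for the mitochondrial ribosome was abundant in these interneurons. All 81 genes passed the filter on low values (FPKM of at least 1 in at least 3 of 12 libraries), which 12716 genes of the table passed. The median of their mean levels was 5.01, or 31.2 FPKM, against 3.31 and 9.03 FPKM over all genes tested, and 76 of the 81 (93.8%) lay above that overall median. Protein-coding members numbered 77, 48 with large-subunit and 29 with small-subunit symbols, with median levels of 5.17 and 4.77. The other 4 are annotated as processed pseudogenes.

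In the large subunit the highest mean levels were those of Mrpl20 at 6.91 (119.5 FPKM), Mrpl42 at 6.90, Mrpl41 at 6.79 and Mrpl12 at 6.76. The library ranges of these 4 overlapped, so their order is not separated beyond the spread. Mrpl12 forms the flexible stalk that recruits translation factors. Its partners at the stalk were less abundant: Mrpl10, the stalk's anchor, stood at 5.51 and Mrpl11, at the base of the stalk, at 4.28. Mrpl45, which ties the ribosome to the inner membrane at the exit of the peptide tunnel, was at 5.18 and hardly varied, with all 12 libraries between 5.12 and 5.24. The lowest protein-coding genes of the large subunit were Mrpl1, part of a mobile arm by which spent transfer RNA leaves, at 2.81, and Mrpl53 at 2.57.

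**Figure D1:**
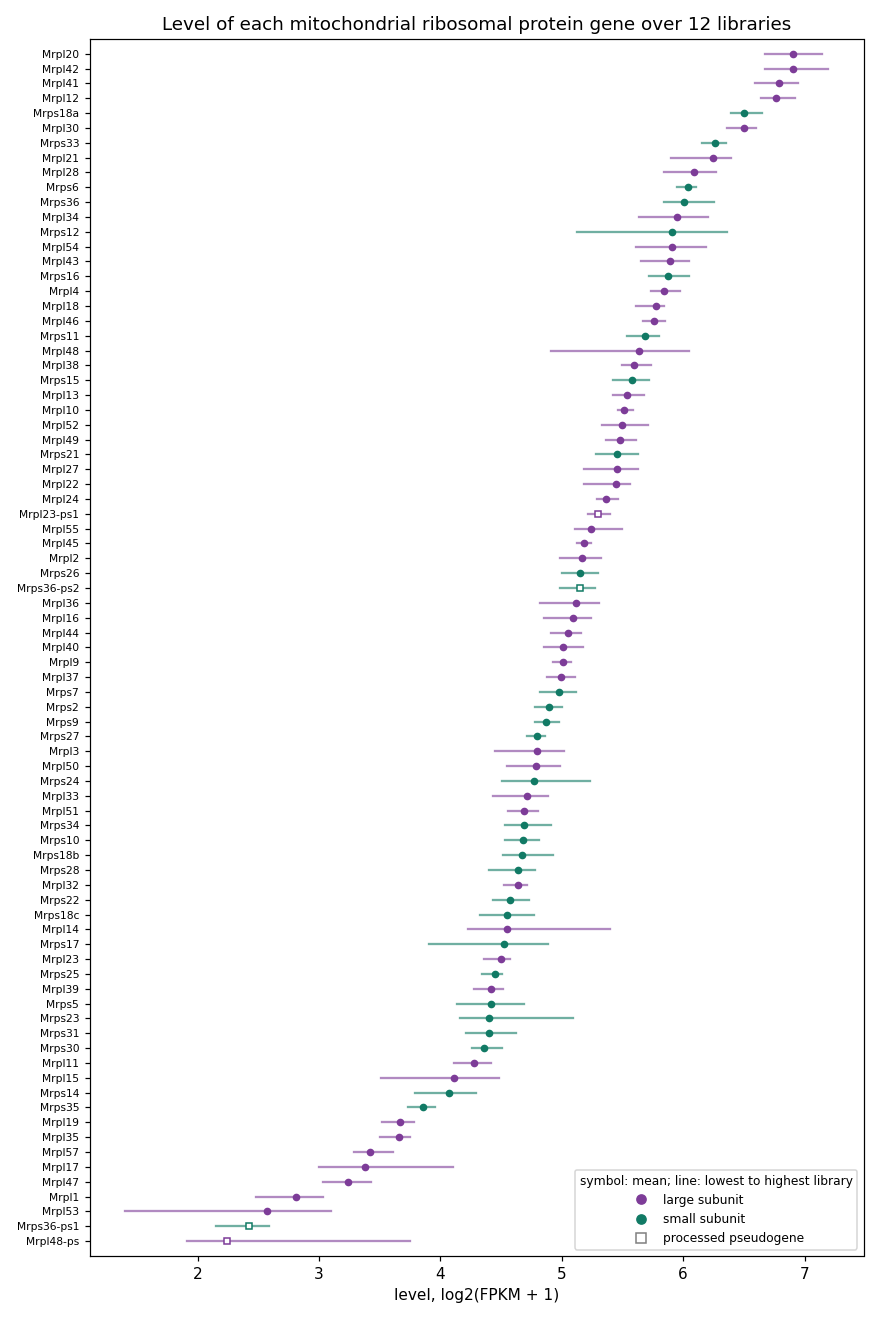
Mean level of each of the 81 genes (symbol, log2(FPKM + 1)) with a line from the lowest to the highest of the 12 libraries; colour gives the subunit and open squares mark processed pseudogenes. Levels run from 2.25 (Mrpl48-ps) to 6.91 (Mrpl20), and long lines mark genes such as Mrpl53, Mrps12 and Mrpl48.

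Among genes with small-subunit symbols, Mrps18a was highest at 6.50, followed by Mrps33 at 6.26, Mrps6 at 6.04 and Mrps36 at 6.00. The last of these also encodes a protein assigned to the 2-oxoglutarate dehydrogenase complex of the citric acid cycle. The lowest protein-coding genes were Mrps14 at 4.07 and Mrps35 at 3.86, so that the small subunit lacked the very low levels seen in Mrpl1 and Mrpl53. The paralogues Mrps18a, Mrps18b and Mrps18c differed in level, at 6.50, 4.67 and 4.55. In human mitochondrial ribosomes the Mrps18a protein sits in the large subunit in spite of its name, while the other two belong to the small subunit. Mrps12, a protein of the decoding centre, stood at 5.91 on average but was among the most variable genes.

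The pseudogene values carry a doubt about read assignment. Mrpl23-ps1 was at 5.30, above its parent Mrpl23 at 4.50, and is identical to it over 540 of 580 bases. Mrps36-ps2 was at 5.15 and Mrps36-ps1 at 2.42, with 99.0% and 99.3% identity to Mrps36. Mrpl48-ps, which matches Mrpl48 at 98.1% over its whole length of 636 bases, was the lowest of all 81 at 2.25. No source used here says how reads were shared between such copies, so levels of these 4 genes and of their 3 parents are uncertain.

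Most of these genes held their level from library to library. The median range over the 12 libraries was 0.33 on the log2 scale against 0.39 over all genes tested, and it was under 0.5 in 64 of the 81 (79.0%) against 66.2% of all genes. The residual SD within groups had a median of 0.105, against 0.113. Since 76 of the 81 lay above the median level of all genes tested, these comparisons are not between genes of like level. No set matched for level was compared. Mrps6 had the smallest residual SD within groups, 0.027, and Mrpl45 the smallest range over the 12 libraries, 0.116. At the other end, 6 genes (7.4%, against 10.1% of all genes) ranged over more than 1: Mrpl48-ps, Mrpl53, Mrps12, Mrpl14, Mrpl48 and Mrpl17.

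Some of those wide ranges came from 1 or 2 libraries. Mrpl53 stood at 1.40 in ACAGTG of single-housed wild type and 1.96 in CTTGTA of single-housed labelled KO, with the other 10 libraries at 2.39 to 3.10. It shares 695 exonic bases on the same strand with Gm42688, which stayed at 3.04 to 3.42. Mrpl48-ps was at 3.75 in CGATGT of group-housed labelled KO and at 1.91 to 2.40 elsewhere. Both have low mean levels. In FPKM, Mrpl53 ran from 1.64 to 7.57 and Mrpl48-ps from 2.76 to 12.44.

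Mrps12 and Mrpl15 varied widely within most groups. Mrps12 was at 6.19, 5.44 and 5.89 in group-housed wild type, 6.22, 6.36 and 6.07 in single-housed wild type, 5.60, 6.26 and 5.50 in group-housed labelled KO, and 6.26, 5.12 and 5.98 in single-housed labelled KO. All 4 groups overlapped, and its divergent neighbour Sars2, the mitochondrial seryl-tRNA synthetase whose start lies 172 bases away, stayed at 3.21 to 3.44. Mrpl15 had 3 low libraries in 3 groups, AGTTCC at 3.51, AGTCAA at 3.53 and ATGTCA at 3.66, against 4.10 to 4.48 in the other 9. A few more departures were picked out after their values were seen. Mrps23 was at 5.09 in AGTTCC and nearly as high in CGATGT, against 4.16 to 4.40 elsewhere, and Mrpl14 was at 5.40 in AGTTCC against 4.23 to 4.72. Mrps17 was low in 3 libraries of 3 groups, at 3.91 in ACAGTG, 4.04 in CTTGTA and 4.13 in AGTTCC, against 4.53 to 4.88 in the other 9.

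**Figure D2:**
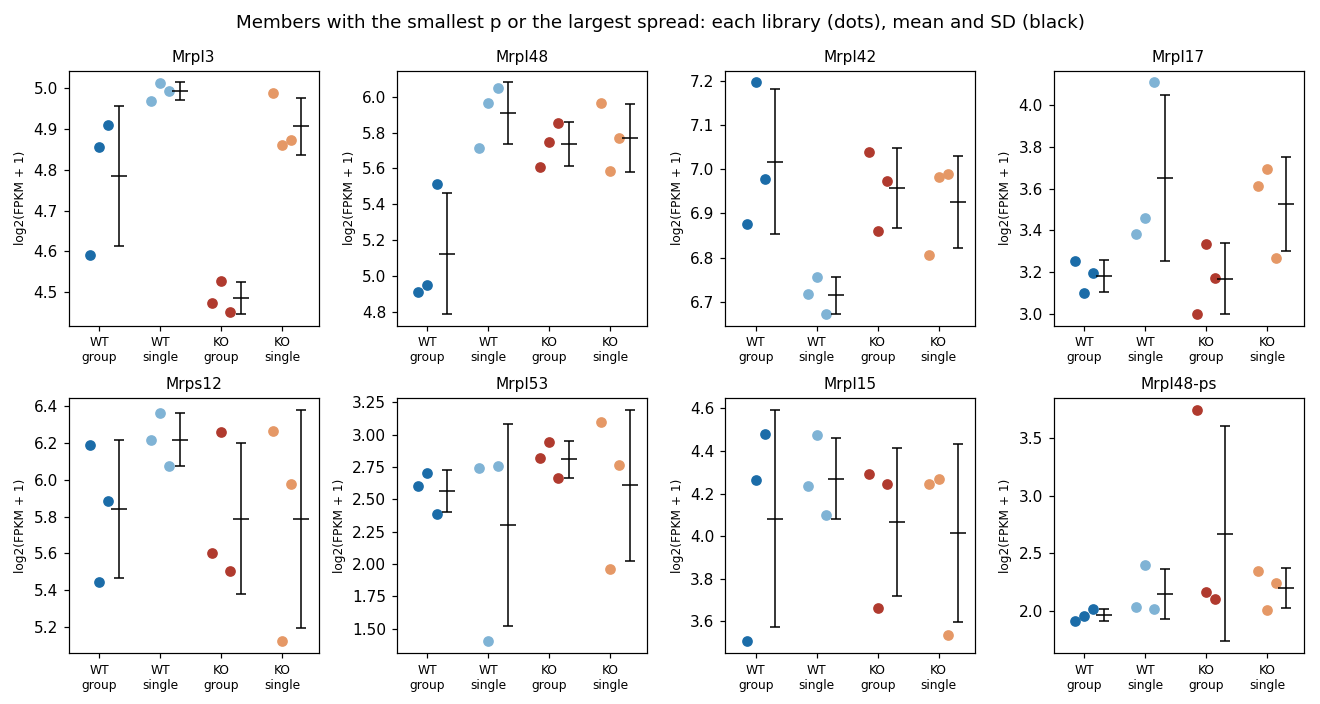
Level (log2(FPKM + 1), vertical axes that do not start at 0) of 8 genes in each library (dots) with the mean and SD of each group of 3 (black). Mrpl3 is lowest in the 3 group-housed libraries labelled KO (4.45 to 4.53), Mrpl48 lowest in group-housed wild type, and the lower row shows the 4 genes with the largest residual SD.

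Genes of the mitochondrial ribosome often share a promoter region with a neighbour. Of the 77 protein-coding members, 33 (42.9%) had a protein-coding gene starting in the opposite direction within 1000 bases, against 1841 of the 11121 protein-coding genes tested (16.6%). Mrpl46 and Mrps11, a large and a small subunit gene, start 412 bases apart on opposite strands of chromosome 7, share 173 exonic bases and had close levels of 5.76 and 5.68. Other pairs differed in level: Ndufs6, a complex I subunit, was at 7.54 beside Mrpl36 at 5.11 with starts 29 bases apart. Exons of 27 members overlapped a gene on the other strand and those of 5 overlapped another gene of the table on the same strand. The library kit keeps the strand, but no source used here gives the strand setting of the counting.

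Members shifted slightly together from library to library. The mean deviation of the 81 genes from their own means was highest in CAGATC of single-housed labelled KO at 0.090, where 80.2% of them lay above their own mean. It was lowest in CTTGTA of the same group at -0.069, with 34.6% above, and in CCGTCC of group-housed wild type at -0.067, with 32.1% above. Over all genes tested that share was 48.8% to 52.9%. The shifts were as large within groups as between them: group means were -0.026 ± 0.047 in group-housed wild type, 0.015 ± 0.017 in single-housed wild type, 0.003 ± 0.048 in group-housed labelled KO and 0.008 ± 0.080 in single-housed labelled KO (mean ± SD, n = 3), and all 4 groups overlapped.

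**Figure D3:**
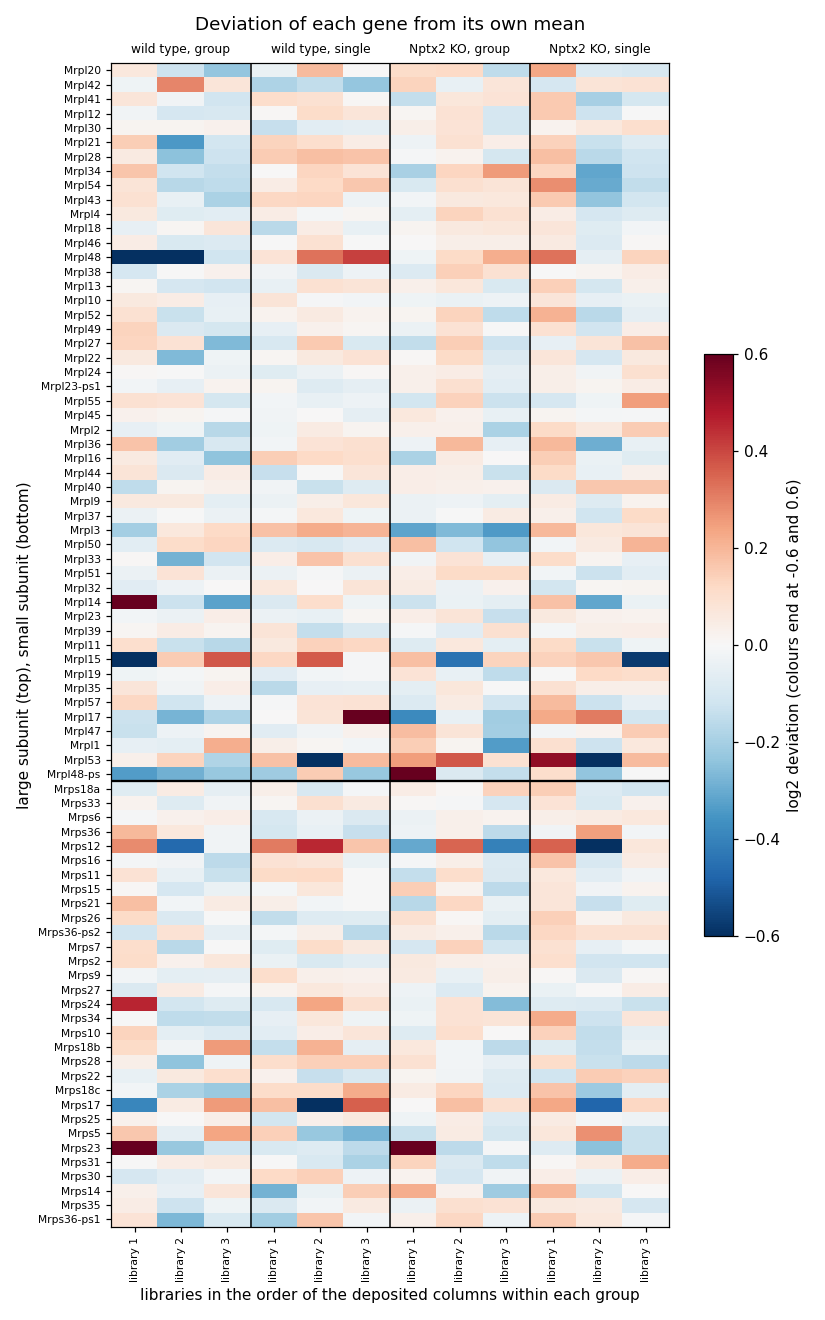
Deviation of each gene (rows, large subunit above the line) from its own mean over 12 libraries (columns), on the log2 scale with colours ending at -0.6 and 0.6. Columns run from AGTTCC through CCGTCC to GTCCGC, then from TGACCA through ACAGTG to GCCAAT, then from CGATGT through ATGTCA to GTGAAA, then from CAGATC through CTTGTA to AGTCAA; most cells are pale, and the tenth column (CAGATC) is mostly red.

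Other gene groups moved with parts of this pattern. In CAGATC the cytosolic ribosomal proteins stood at 0.121 and complex I subunits at 0.090. In CTTGTA complex I was low at -0.121 while cytosolic ribosomal proteins were at -0.010. In GTGAAA of group-housed labelled KO the cytosolic ribosomal proteins were at -0.200 against -0.051 for the mitochondrial ones. Transcript length moved with part of it: the 3128 genes with the shortest transcripts (longest transcript of at most 1868 bases) stood at 0.060 in CAGATC, -0.070 in GTGAAA and -0.036 in CCGTCC but at -0.020 in CTTGTA, where the members were lowest, and the median longest transcript of the members is 1757 bases against 3165 over all genes tested. The 5 libraries with a high amino acid response (scores of 0.562 to 0.773, against -0.516 to -0.405 in the other 7) had member scores from -0.069 to 0.018, within the range of -0.051 to 0.090 in the others except in CCGTCC and CTTGTA. The mean does not show single members, some of which separated by this response in either direction. Mrpl54 stood at 5.61 to 5.82 in the 5 high libraries and at 5.95 to 6.19 in the other 7. Mrpl34 was at 5.64 to 5.83 against 5.95 to 6.21. Mrpl4, Mrpl16, Mrpl21 and Mrpl41 were also lower in the 5 high libraries without overlap. Mrpl50 went the other way, at 4.84 to 4.99 against 4.55 to 4.77, and so did Mrps31. More of the genes named here were thus lower than higher. All were picked after their values were seen. The members that separated were not counted, nor was the share of such genes in the whole table. The part of transcript length and of the amino acid response in the shifts was not tested.

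**Figure D4:**
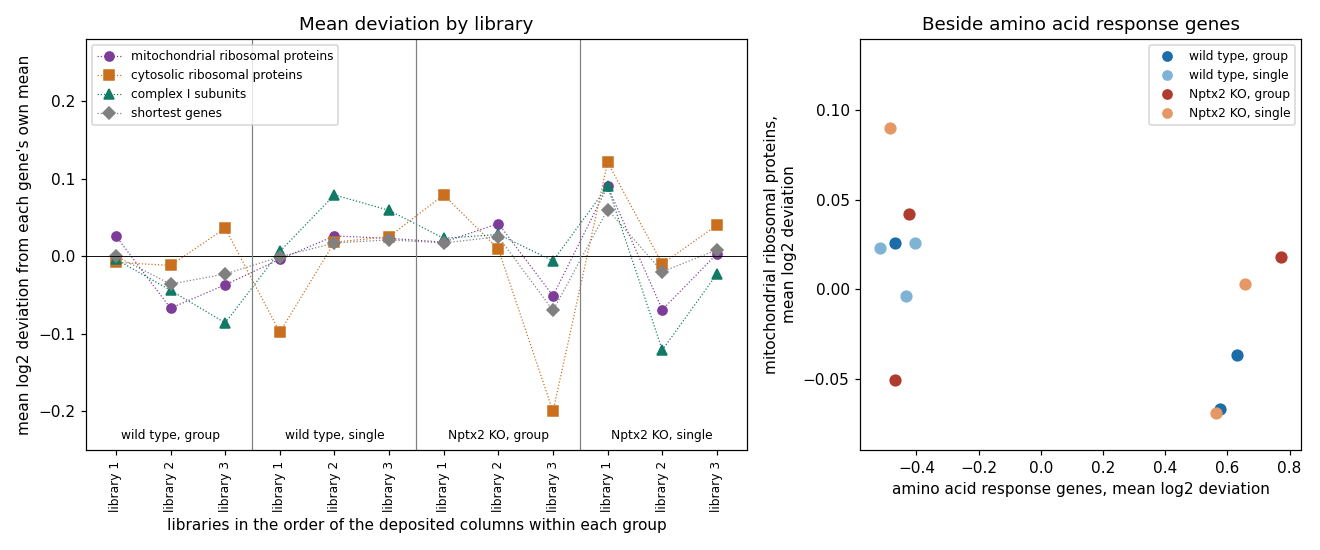
Left, mean log2 deviation from each gene's own mean in each library (groups divided by lines, libraries in the order given for the heat map) for mitochondrial ribosomal proteins, cytosolic ribosomal proteins, complex I subunits and the 3128 genes with the shortest transcripts. Right, the mitochondrial ribosomal score of each library (dot, coloured by group) against its amino acid response score; the libraries split into 5 high and 7 low on the horizontal axis.

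The first comparison set single-housed against group-housed wild type and asks what isolation after weaning did to RNA on these ribosomes. No member passed the test (limma, Benjamini-Hochberg adjusted p under 0.05 over all genes, 0 of 81, where 0.0393% of all genes passed), and the lowest adjusted p was 0.194. At an unadjusted p under 0.05, 9 members lay higher and 3 lower in single housing, 11.1% and 3.7% of the 81, against 5.91% and 6.36% of all genes. Groups did not overlap in 12 higher and 7 lower members, against 10.4% and 11.5% of all genes. The median difference of the 81 was 0.018, against 0.003 over all genes, with 48 of 81 positive. It was 0.144 with a term for Y-linked signal in the fit, and 0.017 to 0.066 with each library left out in turn. That term rests on the contrast of CAGATC with CTTGTA and AGTCAA, because signal and housing coincide in wild type. The value of 0.144 is therefore not a housing difference freed of the signal. Complex I subunits, listed for comparison, had a median of 0.084 with 31 of 36 positive, and cytosolic ribosomal proteins -0.026 with 35 of 81 positive, with none called in either list.

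Mrpl48 had the largest difference in this comparison. This protein of the large subunit has no bacterial counterpart in the ribosome, and its gene (ENSMUSG00000030706) lies on GRCm38 chromosome 7 from 100545751 to 100608301. It stood at 4.91, 4.95 and 5.51 in group-housed wild type and at 5.72, 5.96 and 6.05 in single-housed wild type. All 3 single-housed libraries lay above the group-housed ones, of which GTCCGC was well above the other two. The difference was +0.78 ± 0.16 (log2 ± SE), a 1.71-fold ratio of mean FPKM, with a limma adjusted p of 0.194. Without GTCCGC, the group-housed library nearest to the single-housed ones, it was +0.98 with a limma adjusted p of 0.0475. This was the lowest over all alternative fits, in which the limma adjusted p reached 0.419. The gene shares 708 exonic bases with Rab6a on the opposite strand, which was at 4.94 to 5.47 in 10 libraries and at 7.39 in GCCAAT and 7.38 in AGTCAA. Mrpl48 was highest in GCCAAT but at a middle 5.77 in AGTCAA.

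Mrpl42, among the most abundant members, lay lower in single-housed wild type. It was at 6.88, 7.20 and 6.98 in group housing and at 6.72, 6.76 and 6.67 in single housing, and the groups did not overlap. The difference was -0.30 ± 0.08 with a limma adjusted p of 0.240. Mrpl42 also separated by the amino acid response, at 6.98 to 7.20 in the 5 libraries where it was high and 6.67 to 6.97 in the other 7. The margin was narrow, with GTCCGC at 6.978 and GTGAAA at 6.974. CCGTCC and GTCCGC of group-housed wild type are among those 5, and no single-housed wild-type library is. The part of this response in the difference was not tested. Smaller differences upward were those of Mrps18c at +0.29 ± 0.10, Mrpl28 at +0.28 ± 0.10 and Mrpl33 at +0.24 ± 0.08 (limma adjusted p of 0.301, 0.301 and 0.293). Mrpl17, a protein near the tunnel exit, was at 3.38, 3.46 and 4.11 in single housing against 3.25, 3.10 and 3.20, a difference of +0.47 ± 0.18 (limma adjusted p = 0.353) in which the library GCCAAT stood apart. Mrps6 and Mrps2 lay lower by small amounts, -0.09 ± 0.04 and -0.13 ± 0.06 (limma adjusted p of 0.353 and 0.406). Mrps2 was the 1 member of the 81 whose libraries separated by Y-linked signal: the 5 with it stood at 4.78 to 4.85 and the 7 without it at 4.92 or more. That comparison was made after its values were seen. The share of such genes in the whole table was not counted, so the count of 1 cannot be read as few or many. Its single-housed library without that signal, CAGATC, was at 4.99, within the range of group-housed wild type.

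Markers of other interneurons differed between these groups: 4 of the 5 (Sst, Vip, Npy, Lamp5 and Cck) had a lower value at an unadjusted p under 0.05 in single-housed wild type, with a median difference of -0.44 and none called. Their part in the members' values was not tested.

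Single housing was then compared with group housing in the libraries labelled KO. No member passed (0 of 81, against 0.00786% of all genes), and the lowest limma adjusted p was 0.400. At an unadjusted p under 0.05, 2 members lay higher and 1 lower (2.5% and 1.2%), near the 2.34% and 2.01% of all genes, and groups did not overlap in 4 higher and 1 lower, against 3.47% and 3.33%. The median difference was 0.013 with 46 of 81 positive, 0.092 with the term for Y-linked signal, and -0.021 to 0.048 with each library left out. Cytosolic ribosomal proteins had a median of 0.083 with 73 of 81 positive, and none was called. The difference between the medians of the 2 kinds of ribosome was not tested.

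Mrpl3 had the smallest p-value of any member in this comparison. It encodes a conserved protein near the catalytic centre of the large subunit (ENSMUSG00000032563, GRCm38 chromosome 9, 105053239 to 105079888). The group-housed libraries labelled KO stood at 4.47, 4.53 and 4.45 and the single-housed ones at 4.99, 4.86 and 4.87. The 3 group-housed values were tight and below every other library of the study, the nearest of which was AGTTCC of group-housed wild type at 4.59. The difference was +0.42 ± 0.08, a 1.36-fold ratio of mean FPKM, with an unadjusted limma p of 2.52e-04 and an adjusted p of 0.400. In CAGATC, the single-housed library labelled KO without Y-linked signal, the level was 4.99. Leaving out AGTTCC, which belongs to neither group but shares the estimate of the spread, gave the same difference with a limma adjusted p of 0.0170. This was the lowest over all alternative fits, in which the limma adjusted p reached 0.910.

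The other members named by their p in this comparison differed less. Mrpl2, a core protein of the large subunit, was at 5.28, 5.23 and 5.32 in single housing against 5.20, 5.20 and 4.98 (+0.15 ± 0.07, limma adjusted p = 0.995). Mrpl17 differed by +0.36 ± 0.18 with overlapping groups (limma adjusted p = 0.995). Mrpl51 lay lower in every single-housed library, at 4.67, 4.56 and 4.62 against 4.73, 4.80 and 4.80 (-0.16 ± 0.05, limma adjusted p = 0.995). Mrpl4 differed by -0.10 ± 0.06. Its libraries separated by the amino acid response, at 5.738 to 5.778 where that response was high and 5.825 to 5.973 where it was low. The response was high in CTTGTA and AGTCAA of single housing and in CGATGT of group housing. Its part in the Mrpl4 difference was not tested. Mrps2 differed by -0.09 ± 0.06, with CTTGTA and AGTCAA, which have Y-linked signal, both at 4.78 and CAGATC, which lacks it, at 4.99, above all 3 group-housed libraries labelled KO at 4.92 to 4.95.

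**Figure D5:**
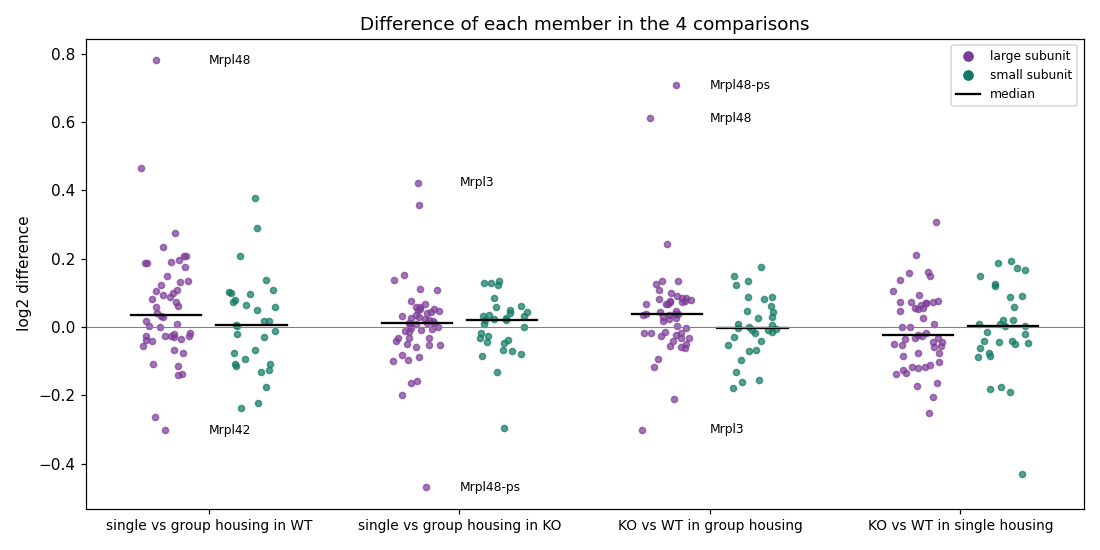
Log2 difference of each member (dot) in the 4 pairwise comparisons, with large subunit genes left and small subunit genes right in each pair and a bar at each median. Nearly all dots lie within 0.3 of 0, the medians lie close to 0, and Mrpl48, Mrpl3, Mrpl42 and Mrpl48-ps are labelled where they stand beyond 0.29.

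Libraries labelled KO were compared with wild type in group housing, the comparison in which no library had Y-linked signal. No member passed, and neither did any gene of the table (0 of 81, against 0%). The lowest limma adjusted p among members was 0.942. At an unadjusted p under 0.05, 1 member lay higher and 1 lower, 1.2% each, against 1.78% and 1.88% of all genes, and groups did not overlap in 2 higher and 1 lower, against 3.15% and 3.86%. The median difference was 0.025 with 46 of 81 positive, against -0.004 over all genes, and 0.000 to 0.046 with each library left out.

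The lower member was Mrpl3, at 4.47, 4.53 and 4.45 in the libraries labelled KO against 4.59, 4.86 and 4.91 in wild type. The groups did not overlap, the difference was -0.30 ± 0.08 (0.801 times the mean FPKM), and the limma adjusted p was 0.942. Without AGTTCC, the lowest wild-type library, it was -0.40 with a limma adjusted p of 0.0488, the lowest over all alternative fits. The higher member was Mrpl48, at 5.61, 5.75 and 5.85 against 4.91, 4.95 and 5.51, a difference of +0.61 ± 0.16 (1.52-fold, limma adjusted p = 1). Both values rest on the same group-housed libraries as the housing comparisons and are not independent of them. Mrpl48-ps differed by +0.71 ± 0.36 (limma adjusted p = 1), a value made by CGATGT at 3.75. Mrps18c, Mrps36 and Mrps18b differed by +0.18 ± 0.10, -0.13 ± 0.08 and -0.16 ± 0.10.

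In single housing the libraries labelled KO were again compared with wild type. No member passed (0 of 81, against 0.0393% of all genes) and the lowest limma adjusted p was 0.567. At an unadjusted p under 0.05, 6 members lay higher and 0 lower (7.4% and 0%), against 4.07% and 3.86% of all genes. Groups did not overlap in 13 higher members and 1 lower, against 7.72% and 8.06%. The median over the 81 was -0.017, with 39 of 81 positive, and -0.062 to 0.027 with each library left out. Cytosolic ribosomal proteins had a median of 0.072 with 63 of 81 positive, complex I subunits -0.047 with 10 of 36 positive, and none of either was called.

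The differences behind those counts were small. Mrps6 was at 6.07, 6.09 and 6.10 in the libraries labelled KO and at 5.95, 6.00 and 5.95 in wild type, a difference of +0.12 ± 0.04 (1.09-fold, limma adjusted p = 0.567) between groups with tight replicates. Mrpl30 differed by +0.15 ± 0.05, Mrps26 by +0.17 ± 0.06 and Mrpl42 by +0.21 ± 0.08 (limma adjusted p of 0.567, 0.594 and 0.621). Each of these 4 had 3 labelled-KO libraries above all 3 wild-type ones. Mrpl42 separated narrowly by the amino acid response over all libraries, and CTTGTA and AGTCAA, labelled KO, are the single-housed libraries where that response was high. The part of the response in the Mrpl42 difference was not tested. On the lower side Mrpl28 differed by -0.21 ± 0.10, Mrps28 by -0.19 ± 0.09 and Mrps18c by -0.18 ± 0.10 with overlapping groups. CAGATC, in which most members were high, is 1 of the 3 libraries labelled KO here and lacks the Y-linked signal of the other 5 single-housed libraries.

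The interaction, which asks whether the housing difference depended on genotype, called 0 of 81 members, against 0.00786% of all genes. At an unadjusted p under 0.05 it had 4 positive and 3 negative members, against 4.14% and 3.57% of all genes. Mrpl48 had the smallest p and the largest value, -0.75 ± 0.23 (limma adjusted p = 0.646): its housing difference was +0.78 in wild type and +0.04 in the libraries labelled KO. By p, Mrps18c at -0.36 ± 0.14 and Mrps28 at -0.28 ± 0.12 came next on the negative side, and Mrps6 at +0.14 ± 0.05, Mrps36 at +0.30 ± 0.12 and Mrpl30 at +0.17 ± 0.07 on the positive side, all with a limma adjusted p of 0.646. Larger values with a wider error were those of Mrpl48-ps, -0.66 ± 0.50, Mrps12, -0.38 ± 0.43, and Mrps5, +0.37 ± 0.19 (limma adjusted p of 0.755, 0.830 and 0.677).

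Averaged over genotypes, single housing called 0 members, against 0.0236% of all genes, and the lowest adjusted p, 0.151, was that of Mrpl3 (+0.32 ± 0.05, limma). Every library with Y-linked signal was single-housed. At an unadjusted p under 0.05 there were 6 higher and 3 lower members, against 4.36% and 4.55% of all genes. Mrpl17 differed by +0.41 ± 0.13 (limma adjusted p = 0.455). Averaged over housing, genotype also called 0 members, against 0.0393% of all genes. It had 0 higher and 1 lower member at an unadjusted p under 0.05, against 1.94% and 1.86%. In the authors' deposited table of their own comparisons of genotype, 0 members had an adjusted p under 0.05 in either housing, with 2 members in group and 5 in single housing at an unadjusted p under 0.05 and lowest adjusted p-values of 0.926 in group and 0.591 in single housing.

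The rest of the mitochondrial translation machinery gave the same count. None of the 6 ribosome subunits with other symbols, 12 translation factors, 25 assembly factors, 12 genes of mitochondrial RNA synthesis and handling and 10 nuclear regulators was called in any of the 7 comparisons. Of these 65 genes, those with an unadjusted p under 0.05 were near or under the shares of all genes given above in the 4 pairwise comparisons. For housing in wild type there were 5 higher and 2 lower (7.7% and 3.1%), for housing in the libraries labelled KO 0, for genotype in group housing 1 higher (1.5%) and for genotype in single housing 3 higher and 2 lower (4.6% and 3.1%). The average effect of housing had 6 higher and 1 lower (9.2% and 1.5%), against 4.36% and 4.55% of all genes. The average effect of genotype had 2 higher and 1 lower (3.1% and 1.5%), against 1.94% and 1.86%, and the interaction 1 in each direction (1.5%). The subunits with other symbols lay within the range of the members: Aurkaip1 stood at 6.80, Dap3 at 5.71, Ict1, the rescue factor built into the large subunit, at 5.61 and Ptcd3 at 3.74. Tufm, the elongation factor that delivers transfer RNA, was at 5.92 to 6.10 in all libraries. Tfam, which packages the mitochondrial genome and starts its transcription, was at 3.72 to 3.99.

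Elac2, the enzyme that trims the 3′ ends of mitochondrial transfer RNAs, had the smallest p of these lists. It was at 3.84, 3.46 and 3.92 in single-housed wild type and at 3.26 to 3.49 in the other 9 libraries, so that only ACAGTG of that group fell within the others' range. It differed by +0.44 ± 0.11 between housing conditions in wild type and by -0.43 ± 0.11 between genotypes in single housing (limma adjusted p of 0.232 and 0.567), 2 values that share the same 3 libraries. Of the factors whose motifs were searched, Nrf1 was at 1.71 to 2.56, Gabpa at 1.45 to 1.70 and Yy1 at 2.69 to 2.91. The coactivator Ppargc1a was at 4.78 on average.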

How the data were processed

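Ribosome-associated RNA from 12 libraries was sequenced with a kit that keeps the strand, per the labels. The aligner HISAT2, the assembler StringTie, the build GRCm38 and limma come from the submitters' processing notes, and no source used here gives their versions. The authors deposited log2(FPKM + 1) values per gene and library. Columns carry a barcode and a group but no replicate number, so libraries are named by barcode. A second quantile normalization changed values by at most 0.00883, so the deposited log2 values had been quantile normalized before, which evens out overall distributions; each library sums to 412903 FPKM. The authors' own genotype comparisons, with p-values and log2 differences, stand in the deposited table beside score values (moderated statistics) that the authors made with limma, per the file headers. Repeating their log2 differences left gaps of at most 5e-07. No libraries held identical values.

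Here limma 3.58.1 in R 4.3.3 fitted a mean per group to the log2(FPKM + 1) values of all 12 libraries (lmFit, contrasts.fit, eBayes with trend; 8 residual and 2.18 prior degrees of freedom) for the 12716 genes that reached an FPKM of 1 in 3 or more libraries. Benjamini-Hochberg adjustment ran over all of them in each of 7 comparisons, with a threshold of 0.05. A difference on this scale understates changes of low genes. The comparisons share groups of 3 libraries. The fit was tested on simulated data. Gene positions and biotypes came from GENCODE on GRCm38, and promoter windows from RefSeq on GRCm38.p6. Pseudogene transcripts were aligned to their parents with BLAST 2.17.0.

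Members and lists were chosen with earlier results of these data known. Genes named are those with the 3 smallest p-values per direction in the pairwise comparisons and the interaction, the 4 highest and 3 lowest levels per subunit, the 4 largest residual SDs, the Mrps18 paralogues and 6 genes by role; others say so or illustrate a position or list. Scores are means over a list of each gene's deviation from its own mean. Alternatives were a pseudocount of 0.1, other filters, median centring, no variance trend, the compared groups alone, a term for Y-linked signal (Ddx3y above 1), each library left out, and, added after seeing the data, the members without pseudogenes.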

Additional observations from a re-analysis of the deposited data

How the results depend on the processing

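The number of members passing the adjusted threshold stayed at 0 in all 7 comparisons with a pseudocount of 0.1, no filter or a filter on the mean, median centring, no variance trend, the compared groups alone where that applies, the term for Y-linked signal, and without pseudogenes. With each library left out in turn it ran from 0 to 1 for housing in wild type, housing in the libraries labelled KO, genotype in group housing and the average effect of housing, and stayed at 0 for the other 3. The single member was Mrpl48 in wild-type housing (without GTCCGC, difference 0.98, limma adjusted p 0.0475) and Mrpl3 in the others (without AGTTCC, differences 0.42, -0.40 and 0.27, limma adjusted p 0.0170, 0.0488 and 0.0401). Over all alternatives the limma adjusted p ran from 0.0475 to 0.419 for Mrpl48 in wild-type housing, and for Mrpl3 from 0.0170 to 0.910, 0.0488 to 1 and 0.0401 to 0.340 in the same order.

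The term for Y-linked signal moved the members' median difference to 0.144 for housing in wild type, 0.092 for housing in the libraries labelled KO and 0.110 for the average effect of housing, from 0.018, 0.013 and 0.014; this term rests on the contrast of CAGATC with CTTGTA and AGTCAA, and no member was called under it. Over the libraries left out, the medians ran from 0.017 to 0.066 for housing in wild type, -0.021 to 0.048 for housing in the libraries labelled KO, 0.000 to 0.046 and -0.062 to 0.027 for genotype in group and single housing, -0.073 to 0.019 for the interaction, 0.002 to 0.033 for the average effect of housing and -0.003 to 0.029 for that of genotype. No paired analysis was possible because the columns carry no replicate numbers. Depth is unknown.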
